A study of Rattus norvegicus with 24 samples.

Results

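Cyclic AMP and cyclic GMP are the small messengers that carry hormone, transmitter and nitric oxide signals inside cells, and the transcripts that make them, break them down and answer to them were followed in 3 tissues of hypertensive and control rats. The genes were taken by symbol: the numbered Adcy genes (adenylyl cyclases), the Gucy genes (guanylyl cyclases), every Pde followed by a digit (cyclic nucleotide phosphodiesterases), Prkac and Prkar (catalytic and regulatory subunits of protein kinase A, PKA) and Prkg (protein kinase G, PKG). The rule found 53 of the 20506 genes that carry values, and no measured level entered it. The tissues were the superior cervical ganglion, which is the sympathetic ganglion of the upper neck, the adrenal gland and the left ventricle of the heart. They came from 24-week-old spontaneously hypertensive rats (SHR), an inbred strain with inherited hypertension and an enlarged left ventricle, and from Wistar-Kyoto rats (WKY) of the same age, the related strain with normal blood pressure. No treatment is given in the labels. Each of the 6 groups gave 4 RNA sequencing libraries, 24 in all, and SHR and WKY differ in their whole genetic background. The labels do not say whether the 4 libraries of a group came from separate rats, so the p-values measure the spread between libraries, which may be technical. Nor do they say whether the 3 tissues came from the same rats, and the contrasts between tissues treat the 24 libraries as separate. A ventricle, gland or ganglion named below with its value is a library.

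In this pathway receptors coupled to stimulatory G proteins switch on adenylyl cyclases, while nitric oxide switches on the soluble guanylyl cyclase. Phosphodiesterases of several families end the signals, some splitting cyclic AMP, some cyclic GMP and some both, and PKA and PKG pass them on by phosphorylating other proteins. In heart muscle cyclic AMP raises the force and rate of the beat, in the adrenal cortex it carries the corticotropin signal to steroid synthesis, and in sympathetic neurons it acts downstream of peptide transmitters such as PACAP.

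Levels are in FPKM, fragments normalised to transcript length and library size, so levels can be set side by side between genes. Differences were tested with limma on log2(FPKM + 1), SHR minus WKY, for genes that reached 1 FPKM in 4 or more of a tissue's 8 libraries. A gene counted as called at an adjusted p under 0.05, and this scale understates the change of weakly expressed genes. Of the 53 genes, 27 could be tested in all 3 tissues, 8 in 2, 5 in 1 and 13 in none. Those 13 were Adcy10, Gucy1a2, Gucy1b2, the 5 Gucy2 genes for receptor guanylyl cyclases of gut and sense organs, and the photoreceptor genes Pde6a, Pde6b, Pde6c, Pde6g and Pde6h. Of the 53, 11 stayed under 1 FPKM in every library, and among the 13 Adcy10 (highest library 1.21 FPKM) and Pde6g (1.03 FPKM) passed it.

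The strain differences lay mostly in the adrenal gland. There 21 of 32 tested members were called, 3 higher and 18 lower in SHR, which is 65.6% of the members tested, against 41.2% of all genes tested in that tissue (16.5% higher, 24.7% lower). In the left ventricle 5 of 33 members were called, 3 higher and 2 lower, a share of 15.2% beside 21.2% of all genes (9.2% higher, 12% lower). In the ganglion 5 of 37 were called, 1 higher and 4 lower, a share of 13.5% beside 10.8% of all genes (6.37% higher, 4.43% lower). The median SHR minus WKY difference of the tested members was -0.39 in the adrenal gland, where the median of all genes was -0.04. It was -0.05 beside -0.03 in the left ventricle and -0.02 beside 0.01 in the ganglion. Of the 53 genes 27 were called in at least 1 tissue, and 1, Pde2a, in all 3. The libraries of the strains did not overlap for 20 of 32 members in the adrenal gland, 6 of 33 in the left ventricle and 7 of 37 in the ganglion, where 39.4%, 24.8% and 17.2% of all tested genes did not overlap. The tissues are mixtures, and a smaller number of cells of a type and less RNA per cell cannot be told apart in them. Without 1 library the ventricle count was 3 when SHR replicate 1 or SHR replicate 2 was left out and 2 when SHR replicate 4 was. The ganglion count was 3 when SHR replicate 1, SHR replicate 3, WKY replicate 1 or WKY replicate 3 was left out, and the adrenal count stayed at 17 to 20. Under median-of-ratios scaling, another way to bring libraries to a common level, the adrenal members split into 5 higher and 16 lower, and 53.2% of all adrenal calls were higher, against 40% without it.

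**Figure D1:**
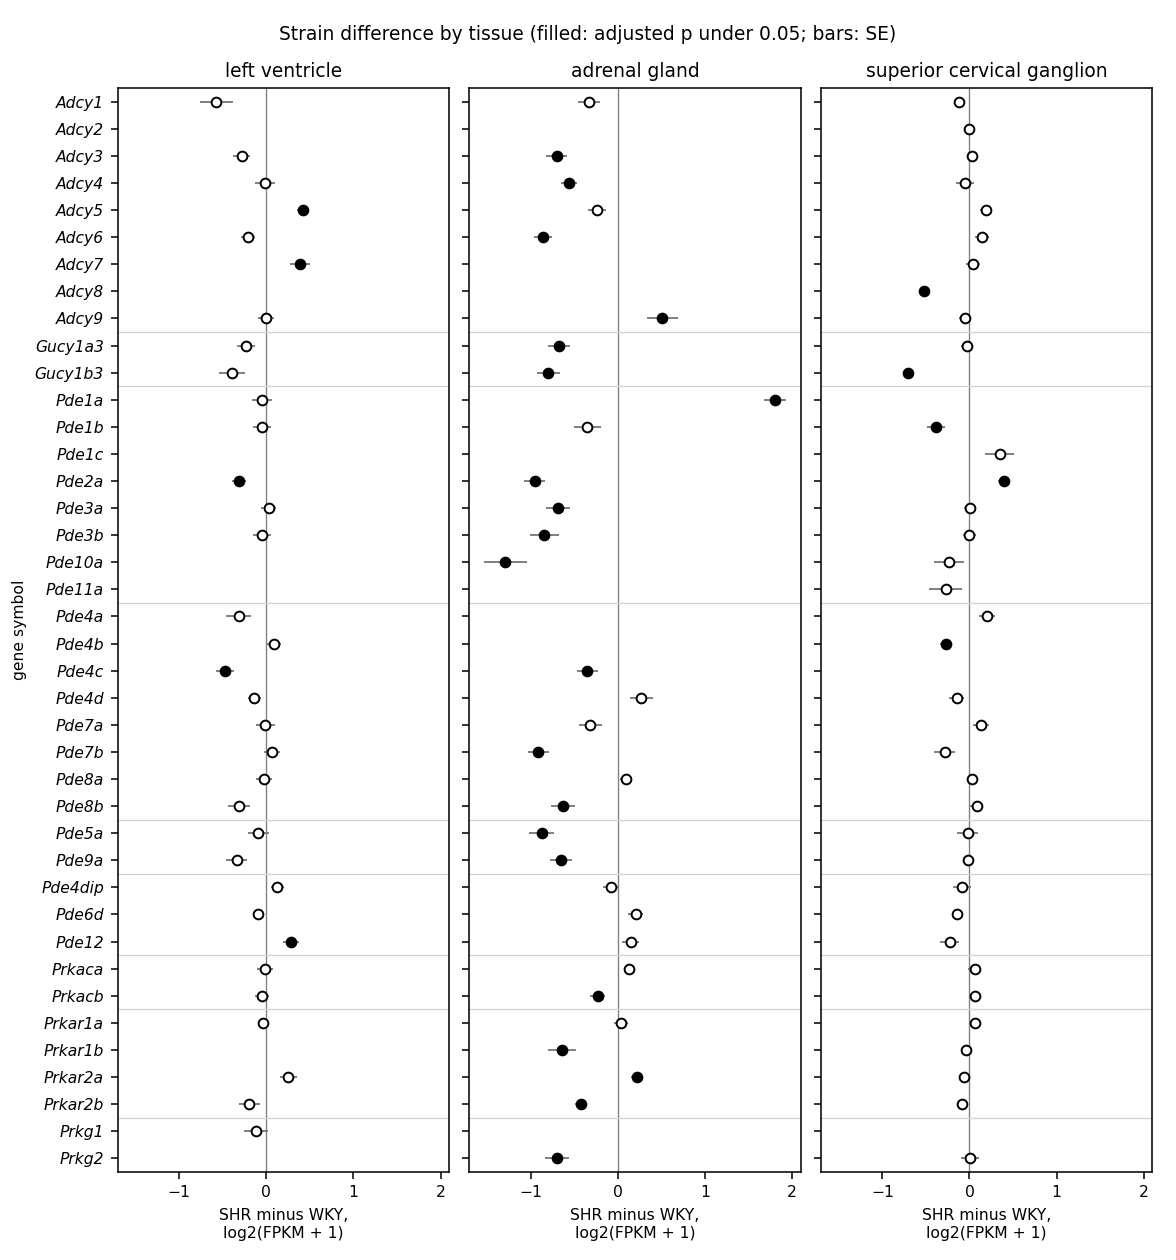
Strain difference (SHR minus WKY) of each tested member on the log2(FPKM + 1) scale, with 1 panel per tissue on a common axis. Points are limma estimates with their SE, filled where the adjusted p was under 0.05, and grey lines part the roles: 18 of the 21 filled adrenal points lie below 0, and Pde1a stands far to the right at 1.80.

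Marker genes were read beside these counts. The adrenal libraries carried the cortex markers Star, Cyp11a1, Cyp21a1, Mc2r and Nr5a1 at a summed 26979 to 27706 FPKM in SHR and 24580 to 26548 FPKM in WKY, and 2 of these 5 were higher in SHR. The 5 chromaffin markers summed to 954 to 1684 FPKM in SHR and 1982 to 2282 FPKM in WKY, with 4 of 5 lower. Endothelial markers summed to 48.9 to 70.7 FPKM in SHR and 91.9 to 102 FPKM in WKY, with 5 of 5 lower, and leukocyte markers to 89.5 to 137 FPKM in SHR and 209 to 293 FPKM in WKY, again with 5 of 5 lower. Erythroid markers moved furthest, at 28 to 99.7 FPKM in SHR and 238 to 304 FPKM in WKY, with 3 of 3 tested lower. Among them Alas2 (0.13 to 0.56 FPKM) and Hba-a1 (0 FPKM) stayed under 1 FPKM in every SHR adrenal library. Those genes passed the filter through WKY alone, so a lower SHR level was built into their tests. Hbb passed in both strains, at 27.8 to 99 FPKM in SHR and 233 to 296 FPKM in WKY. Sympathetic neuron markers summed to 155 to 301 FPKM in SHR and 415 to 497 FPKM in WKY, with 4 of 5 lower. None of the defining genes of the cortex, chromaffin, endothelial and leukocyte lists averaged under 1 FPKM in either strain. The part of these shifts in the adrenal results was not tested. The ventricle carried its 5 cardiomyocyte markers at 15357 to 16414 FPKM in SHR and 18175 to 19524 FPKM in WKY, with 1 of 5 higher and 2 lower. Erythroid markers there summed to 430 to 568 FPKM in SHR and 647 to 1647 FPKM in WKY, with 3 of 3 tested lower. Of these, Hba-a1 reached at most 0.51 FPKM in SHR ventricles and passed the filter through WKY alone. Leukocyte markers summed to 291 to 380.1 FPKM in SHR and 335 to 415 FPKM in WKY in the ventricle, and 2 of 5, C1qa and Cd68, were higher. The part of these shifts in the ventricle results was not tested either. The ganglion carried its 5 sympathetic neuron markers at 5822 to 6136 FPKM in SHR and 5729 to 6140 FPKM in WKY, with 1 of 5, Dbh, lower. Markers of Schwann cells and satellite glia summed to 534 to 994 FPKM in SHR and 582 to 1166 FPKM in WKY there. Of these 1 of 5 was lower, S100b, at a mean of 89.5 FPKM in SHR and 135 FPKM in WKY. The part of these shifts in the ganglion results was not tested. On the second principal component, SHR replicate 3 lay away from its group in the ventricle and in the adrenal gland. In the ganglion SHR replicate 1 did, and WKY replicates 1 and 4 lay on the opposite side to WKY replicates 2 and 3.

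The 40 members that passed the filter in at least 1 tissue were spread over the tissues by isoform. All 8 libraries of 1 tissue stood above all 16 of the others for 9 of the 40 members in the left ventricle, 6 in the adrenal gland and 14 in the ganglion, which is 22.5%, 15% and 35%. The same held for 14.3%, 22.8% and 23.8% of all 14682 genes tested. The ventricle led for Adcy4, Adcy5, Adcy6, Pde3a, Pde4a, Pde4c, Pde4d, Pde4dip and Prkg1, and the adrenal gland for Adcy9, Pde8a, Pde8b, Pde12, Prkar1a and Prkar2b. The ganglion led for Adcy1, Adcy2, Adcy3, Adcy8, Gucy1a3, Gucy1b3, Pde1b, Pde4b, Pde6d, Pde9a, Pde11a, Prkacb, Prkar1b and Prkg2. Averaged over the strains, 20 of 40 members differed at least 2-fold at an adjusted p under 0.05 between the adrenal gland and the ventricle (8 higher in the adrenal gland, 12 lower), beside 35.3% of all genes (19.7% higher, 15.6% lower). Between the ganglion and the ventricle 25 differed (16 higher in the ganglion, 9 lower), beside 41.2% of all genes (23.3% higher, 17.9% lower), and between the adrenal gland and the ganglion 22 (6 higher in the adrenal gland, 16 lower), beside 41.3% of all genes (20.2% higher, 21.1% lower). Other scalings moved the median of all genes by -0.21 to 0.10 in the adrenal-ventricle contrast, -0.18 to 0.20 in the ganglion-ventricle contrast and -0.15 to 0.05 in the adrenal-ganglion contrast, so tissue differences of that size depend on the scaling.

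**Figure D2:**
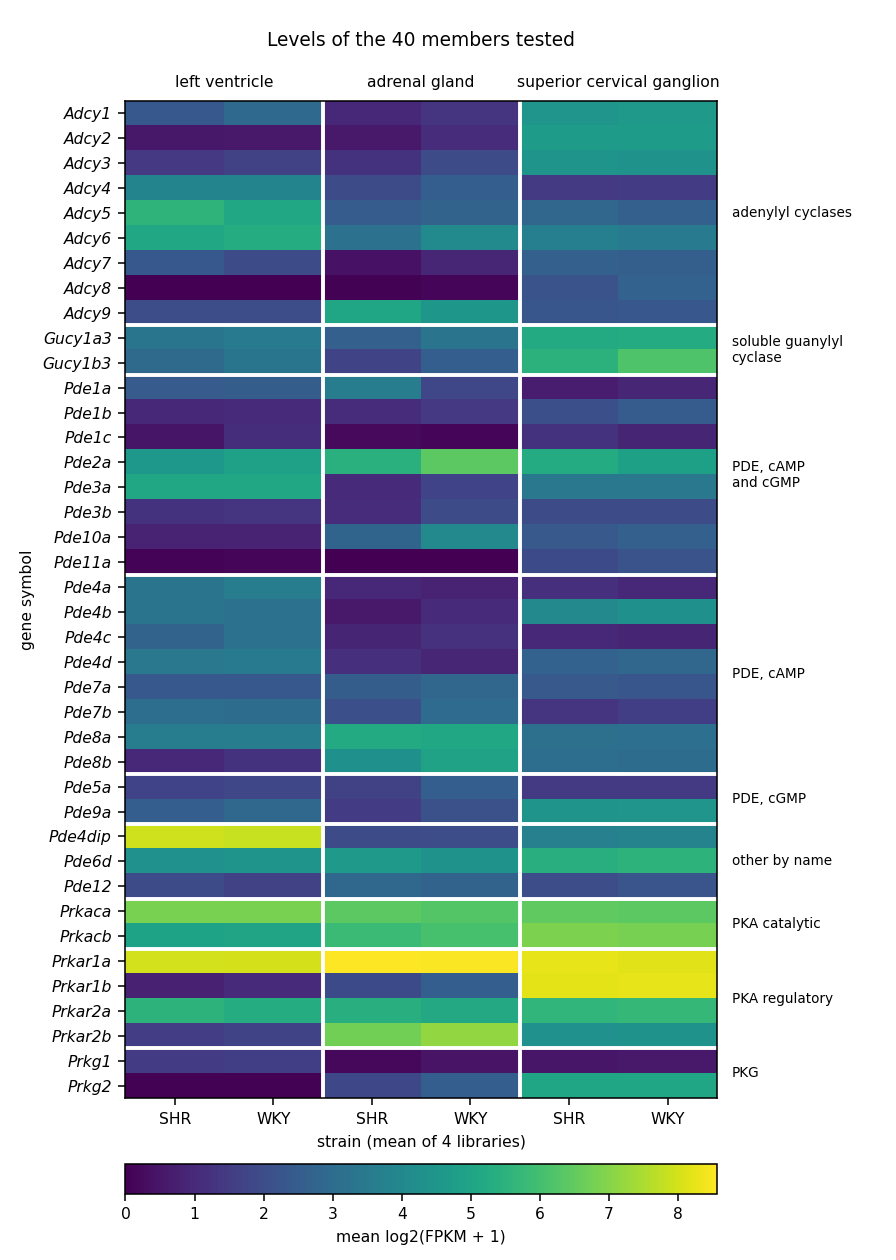
Mean log2(FPKM + 1) of the 40 members tested in at least 1 tissue, grouped by role, with SHR and WKY side by side in each tissue (4 libraries each). The brightest cells are the regulatory subunits Prkar1a in every tissue and Prkar1b in the ganglion, and Pde4dip in the left ventricle.

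Each tissue had its own set of adenylyl cyclases, the enzymes that make cyclic AMP. In the left ventricle Adcy5 and Adcy6, the calcium-inhibited cyclases of heart muscle, made up most of the summed level of the family: Adcy5 43.5% ± 2.35 in SHR and 33.6% ± 0.586 in WKY, and Adcy6 31.02% ± 1.99 in SHR and 37.7% ± 2.63 in WKY (SD, n = 4). In the adrenal gland Adcy9, a widely expressed cyclase that responds little to forskolin, led with 61.4% ± 3.57 in SHR and 39.7% ± 7.87 in WKY. In the ganglion Adcy2, a cyclase stimulated by G-protein βγ subunits, led at 23.5 to 26.7 FPKM over the 8 libraries, with the calcium-stimulated Adcy1 at 18.98 to 24.8 FPKM and Adcy3 at 19.6 to 21.3 FPKM. Adcy2 was above both in 8 of 8 libraries. Adcy1 was above Adcy3 in 6 of 8, and those ranges overlapped. Adcy2 had 23.5, 25.9, 24.7 and 25.6 FPKM in SHR, against 23.5, 24.6, 26.7 and 24.9 FPKM in WKY, and the strains overlapped. Outside the ganglion Adcy2 was low, with 0.37 to 0.67 FPKM in the ventricle and 0.25 to 1.27 FPKM in the adrenal gland. The ganglion over ventricle difference was 4.13 (SE 0.06, adjusted p = 1.07e-25).

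Between the strains the ventricle shifted toward Adcy5. Adcy5 had 42.8, 51.1, 45.9 and 47.02 FPKM in SHR, against 33.97, 33.4, 33 and 37.5 FPKM in WKY, so every SHR ventricle was above every WKY ventricle. The means were 46.7 ± 3.43 FPKM in SHR and 34.5 ± 2.04 FPKM in WKY (SD, n = 4), a strain difference of 0.43 (SE 0.07, adjusted p = 0.00233). Adcy7, a βγ-stimulated cyclase found in many blood cells, was also higher, with 5.25, 3.85, 3.7 and 4.04 FPKM in SHR, against 3.45, 2.52, 2.79 and 3.14 FPKM in WKY, a strain difference of 0.39 (SE 0.11, adjusted p = 0.0366). Of the 5 leukocyte markers, C1qa and Cd68 were higher in the SHR ventricle too. Ptprc, Csf1r and Cd74 were not called, and the sums of the list overlapped between the strains. The part of leukocytes in the Adcy7 value was not tested. The strains did not overlap for Adcy7, but its call was lost in 4 of the 8 fits that left out 1 library, with adjusted p up to 0.0971. The other 5 cyclases tested in the ventricle were not called, among them Adcy6 at 33.2 ± 1.798 FPKM in SHR and 38.7 ± 3.64 FPKM in WKY, a difference of -0.21 (SE 0.08, adjusted p = 0.0746). The summed level of the family was 107 ± 2.11 FPKM in SHR and 102 ± 5.93 FPKM in WKY.

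Of the cyclases tested in the adrenal gland, 3 of 6 were lower and 1 was higher, beside 24.7% and 16.5% of all genes tested there. Adcy6 had 7.28, 8.07, 8.46 and 10.04 FPKM in SHR, against 13.9, 16.7, 15.9 and 18.1 FPKM in WKY, a strain difference of -0.86 (SE 0.11, adjusted p = 2.64e-04). Every SHR gland lay well below every WKY gland, with a WKY mean 1.91 times the SHR mean. Adcy3, best known from olfactory neurons, had 1.67, 1.33, 0.96 and 1.56 FPKM in SHR, against 2.42, 3.0, 2.93 and 3.05 FPKM in WKY, a difference of -0.70 (SE 0.12, adjusted p = 0.0015). Adcy4, a βγ-stimulated cyclase, had 3.09, 3.07, 3.36 and 2.47 FPKM in SHR, against 4.65, 5.21, 4.97 and 4.71 FPKM in WKY, a difference of -0.56 (SE 0.09, adjusted p = 0.00146). The strains were apart for both. Adcy9 went the other way, with 31.7, 33.3, 33.2 and 29.1 FPKM in SHR, against 27.04, 20.9, 28.2 and 14.7 FPKM in WKY, a strain difference of 0.51 (SE 0.18, adjusted p = 0.0483). The SHR glands were close together and above all WKY glands, which ranged widely, and the call was lost in 5 of 8 fits without 1 library and in 3 of the other 6 settings. Adcy5 was not called there, at 4.69, 4.55, 4.03 and 5.4 FPKM in SHR, against 5.08, 5.99, 6.37 and 5.34 FPKM in WKY, a difference of -0.24 (SE 0.10, adjusted p = 0.0845). The family sum was 51.8 ± 0.830 FPKM in SHR and 56.5 ± 5.32 FPKM in WKY.

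In the ganglion 1 of 9 tested cyclases was called, a share near the 10.8% of all genes called there. Adcy8, a calcium- and calmodulin-stimulated cyclase of neurons, had 3.33, 3.51, 3.62 and 3.64 FPKM in SHR, against 5.38, 5.81, 5.04 and 5.76 FPKM in WKY, a strain difference of -0.52 (SE 0.06, adjusted p = 4.87e-04). The strains were far apart relative to their spread, and the call held in every setting tried. Adcy1 was not called, at 21.1 ± 1.63 FPKM in SHR and 23.02 ± 1.43 FPKM in WKY, a difference of -0.12 (SE 0.06, adjusted p = 0.296). Adcy5 and Adcy6 were not called either, at differences of 0.19 (SE 0.07, adjusted p = 0.122) and 0.15 (SE 0.08, adjusted p = 0.312).

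The strain difference itself differed between the adrenal gland and the ventricle for 7 of 9 cyclases, 1 higher and 6 lower in the adrenal gland. Over all roles this held for 22 of 40 members (6 higher, 16 lower) and for 34.5% of all genes (15.5% higher, 19% lower). Adcy5, higher in the SHR ventricle, gave an adrenal minus ventricle value of -0.67 (SE 0.11, adjusted p = 7.73e-05), and Adcy7 one of -0.87 (SE 0.15, adjusted p = 9.17e-05). Adcy7 had 0.47, 0.29, 0.18 and 0.45 FPKM in SHR, against 0.83, 0.66, 1.12 and 0.90 FPKM in WKY in the adrenal gland, where it was under the filter. Adcy2 had 0.25, 0.69, 0.41 and 0.69 FPKM in SHR, against 1.15, 0.98, 1.03 and 1.27 FPKM in WKY there, an adrenal minus ventricle value of -0.43 (SE 0.12, adjusted p = 0.00828) and an adrenal minus ganglion value of -0.49 (SE 0.12, adjusted p = 0.00399). Between the ganglion and the ventricle the difference was called for 7 of 40 members (4 higher, 3 lower) beside 14.4% of all genes (8.59% higher, 5.84% lower). Between the adrenal gland and the ganglion it was called for 25 of 40 (6 higher, 19 lower) beside 29.8% of all genes (10.7% higher, 19.1% lower), and Adcy6 gave -1.01 (SE 0.13, adjusted p = 4.61e-06). Of these 54 calls 35 held in each of 31 settings, and 5 concern a member that stayed under 1 FPKM in every library of 1 of the tissues compared. Further calls concern members that were under the filter in 1 of the tissues compared. They were Pde4a, Pde4b, Adcy2 and Adcy7 in the adrenal gland, Pde10a, Prkar1b and Pde1c in the ventricle, and Pde1a and Pde4c in the ganglion. These contrasts share libraries and are not independent of each other.

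**Figure D3:**
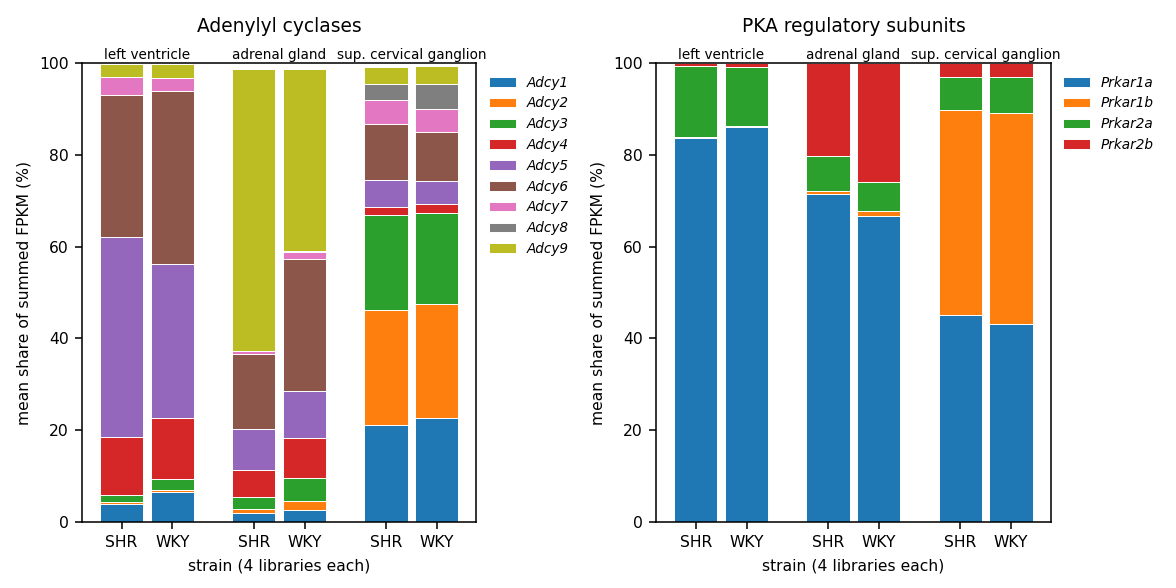
Mean share (%) of each isoform in the summed FPKM of the adenylyl cyclases (left; Adcy10, below 2 FPKM everywhere, is not drawn) and of the PKA regulatory subunits (right), in SHR and WKY for each tissue, 4 libraries each. Adcy5 takes 43.5% in the SHR ventricle and 33.6% in the WKY ventricle, and Prkar1b reaches over 40% only in the ganglion.

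The soluble guanylyl cyclase, the nitric oxide receptor that makes cyclic GMP, is a pair of an α and a β subunit, deposited under the older symbols Gucy1a3 and Gucy1b3 (now Gucy1a1 and Gucy1b1). Both were far higher in the ganglion than elsewhere. Gucy1b3 spanned 43.2 to 74.8 FPKM there, 1.8 to 5.67 FPKM in the adrenal gland and 5.37 to 11.1 FPKM in the ventricle. Gucy1a3 spanned 32.2 to 40.1, 4.49 to 10.1 and 7.95 to 11.5 FPKM in the same order. The ranges of the ganglion stood clear of both other tissues for each gene. The adrenal minus ganglion differences were -3.70 (SE 0.09, adjusted p = 1.46e-21) for Gucy1b3 and -2.29 (SE 0.08, adjusted p = 1.02e-18) for Gucy1a3.

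The genes of both subunits follow each other on chromosome 2 of the RefSeq assembly GRCr8, with no other protein-coding gene between them, and both are read from the minus strand. The 250 bases before each start are shown because the pair moved together in one tissue and apart in another. They are from RefSeq on GRCr8, a later assembly than the Rnor_6.0 named in the submitters' notes, at chr2:169696988-169697237 for Gucy1b3 and chr2:169779624-169779873 for Gucy1a3, both minus strand and written 5′ to 3′. Capitals mark CCAAT boxes, searched as CCAAT and, for the other strand, as ATTGG, which start 126 and 72 bases before the start in Gucy1b3 and 186 bases before it in Gucy1a3.
Gucy1b3: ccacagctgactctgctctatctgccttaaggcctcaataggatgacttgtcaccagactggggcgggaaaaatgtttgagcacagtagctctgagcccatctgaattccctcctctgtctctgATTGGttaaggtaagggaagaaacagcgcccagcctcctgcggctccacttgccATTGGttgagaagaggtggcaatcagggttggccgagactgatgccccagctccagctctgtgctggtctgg
Gucy1a3: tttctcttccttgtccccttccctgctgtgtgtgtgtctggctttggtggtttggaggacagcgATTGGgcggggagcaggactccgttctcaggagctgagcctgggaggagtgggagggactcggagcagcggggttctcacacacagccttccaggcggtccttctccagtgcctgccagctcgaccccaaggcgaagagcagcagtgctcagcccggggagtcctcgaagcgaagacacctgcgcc
A CCAAT box lies in 34% of all 33469 rat promoters of that length in the table, so its presence is common. Neither window holds the cAMP response element TGACGTCA or its half-site TGACG, searched on the other strand as CGTCA, which 1.59% and 18.2% of all promoters hold. Of the 53 members 37 have a promoter in the table, 51 windows in all. The full site is in none of these windows, and the half-site is in windows of 6 members, Adcy9, Pde4a, Pde4d, Pde8a, Pde10a and Prkaca.

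In the ganglion the strains parted in 1 subunit. Gucy1b3 had 43.2, 46.9, 44.5 and 43.4 FPKM in SHR, against 72.6, 74.8, 72.96 and 71.6 FPKM in WKY. All SHR ganglia lay below all WKY ganglia, with a gap larger than the range within either strain. The means were 44.5 ± 1.69 FPKM in SHR and 73 ± 1.31 FPKM in WKY (SD, n = 4), a strain difference of -0.70 (SE 0.04, adjusted p = 2.05e-06). Gucy1a3 had 32.2, 37.7, 38.1 and 39.2 FPKM in SHR, against 38.2, 40.1, 36.04 and 35.8 FPKM in WKY, with overlapping strains and a difference of -0.03 (SE 0.06, adjusted p = 0.836). The β subunit made up 54.2% ± 2.08 of the summed soluble cyclase level in SHR and 65.5% ± 0.959 in WKY.

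Both subunits were lower in the SHR adrenal gland. Gucy1a3 had 5.09, 4.59, 4.49 and 6.7 FPKM in SHR, against 7.71, 8.3, 10.1 and 9.37 FPKM in WKY, a strain difference of -0.67 (SE 0.13, adjusted p = 0.00245). Gucy1b3 had 2.22, 2.89, 1.8 and 2.7 FPKM in SHR, against 4.3, 4.32, 5.67 and 5.29 FPKM in WKY, a strain difference of -0.80 (SE 0.13, adjusted p = 0.00123). Neither gene's strains overlapped. In the ventricle neither was called: Gucy1a3 had 7.95, 8.51, 9.25 and 10.1 FPKM in SHR, against 11.5, 8.57, 11.4 and 11.4 FPKM in WKY and a difference of -0.23 (SE 0.11, adjusted p = 0.146), and Gucy1b3 had 5.37, 6.4, 8.14 and 7.22 FPKM in SHR, against 11.1, 6.65, 9.65 and 9.74 FPKM in WKY and a difference of -0.39 (SE 0.15, adjusted p = 0.091). The strain difference of Gucy1a3 was larger downward in the adrenal gland than in the ganglion by -0.64 (SE 0.15, adjusted p = 0.00255), and than in the ventricle by -0.44 (SE 0.15, adjusted p = 0.0262), where 6 of 24 fits without 1 library lost the call. For Gucy1b3 the adrenal minus ganglion value was -0.10 (SE 0.17, adjusted p = 0.723), which did not pass.

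Among the phosphodiesterases that split both messengers, Pde2a was the most abundant in the adrenal gland and the ganglion. Pde2a is activated by cyclic GMP and then breaks down cyclic AMP. It was the one member called in all 3 tissues, lower in the SHR ventricle and adrenal gland and higher in the SHR ganglion. The adrenal glands had 38.8, 39.5, 52.8 and 39.8 FPKM in SHR, against 70.1, 78.3, 91.2 and 94.4 FPKM in WKY. The WKY glands were all above the SHR glands, of which replicate 3 was the highest. The means were 42.7 ± 6.73 FPKM in SHR and 83.5 ± 11.3 FPKM in WKY, a strain difference of -0.95 (SE 0.12, adjusted p = 3.55e-04). In the ganglion it had 38.2, 35.1, 36.6 and 39.5 FPKM in SHR, against 30.4, 24.8, 27.1 and 30.2 FPKM in WKY, again without overlap but with SHR higher, a strain difference of 0.40 (SE 0.07, adjusted p = 0.00379). In the ventricle it had 23.9, 20.9, 25.1 and 21.97 FPKM in SHR, against 32.3, 26.2, 27.3 and 29.6 FPKM in WKY, a strain difference of -0.31 (SE 0.08, adjusted p = 0.0224). The ventricles did not overlap, but 3 of the 8 fits without 1 library lost that call, with adjusted p up to 0.0616. The strain difference was tested between tissues. It was -1.35 (SE 0.14, adjusted p = 2.33e-07) for the adrenal gland minus the ganglion, 0.71 (SE 0.14, adjusted p = 0.00134) for the ganglion minus the ventricle and -0.64 (SE 0.14, adjusted p = 0.00131) for the adrenal gland minus the ventricle.

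**Figure D4:**
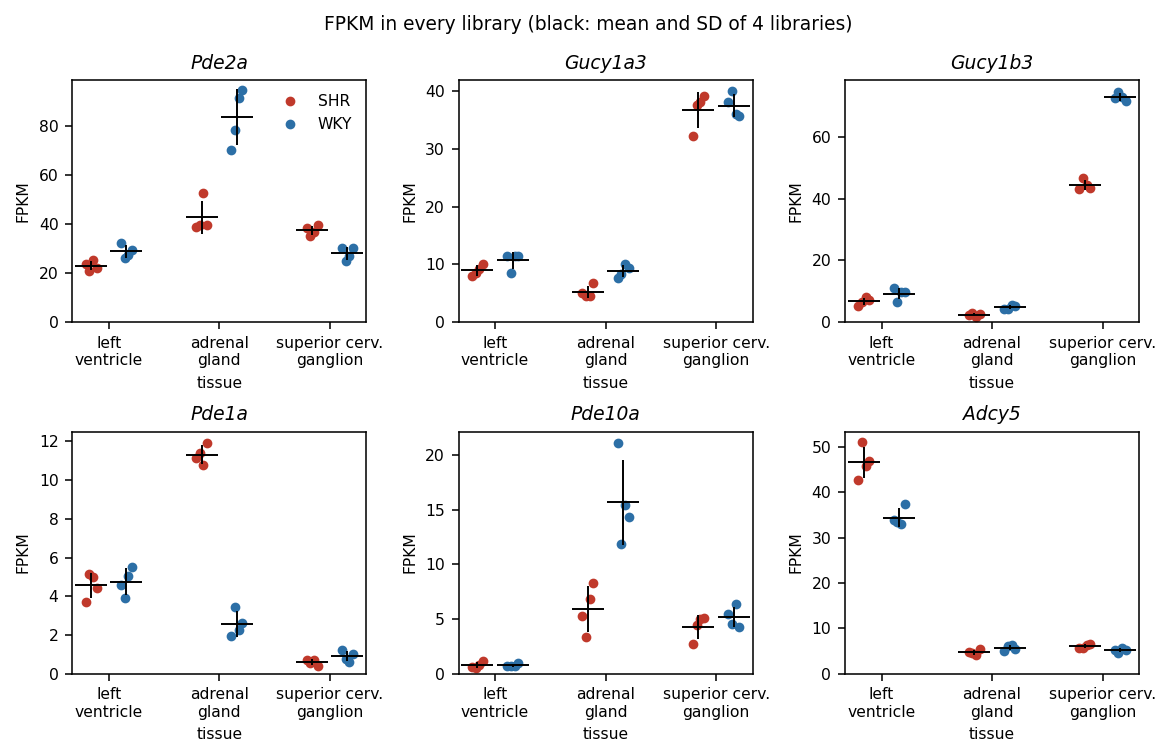
FPKM of Pde2a, Gucy1a3, Gucy1b3, Pde1a, Pde10a and Adcy5 in every library (SHR red, left of WKY blue) with the mean and SD of 4 libraries in black. Pde2a is lower in SHR in the left ventricle and the adrenal gland and higher in the ganglion, Gucy1b3 separates the strains in the ganglion while Gucy1a3 does not, and Pde1a separates them in the adrenal gland.

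Pde1a, a calcium- and calmodulin-stimulated phosphodiesterase, showed the largest strain difference of the members tested in the adrenal gland, and it was upward. It had 11.1, 11.4, 10.8 and 11.9 FPKM in SHR, against 1.93, 3.46, 2.25 and 2.64 FPKM in WKY. All SHR glands were far above all WKY glands. The mean was 4.401 times as high in SHR, a strain difference of 1.80 (SE 0.12, adjusted p = 9.05e-06). In the ventricle it had 3.72, 5.13, 4.99 and 4.41 FPKM in SHR, against 4.59, 3.91, 5.05 and 5.49 FPKM in WKY, with overlap and a difference of -0.05 (SE 0.11, adjusted p = 0.785). In the ganglion it stayed under the filter at 0.40 to 1.21 FPKM. The adrenal minus ventricle value of the strain difference was 1.85 (SE 0.17, adjusted p = 3.74e-08).

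Pde10a, a phosphodiesterase best known from the striatum of the brain, was the member with the largest downward difference there. It had 5.25, 3.39, 6.88 and 8.3 FPKM in SHR, against 21.1, 11.9, 15.4 and 14.4 FPKM in WKY, and the highest SHR gland was below the lowest WKY gland. The means were 5.96 ± 2.12 FPKM in SHR and 15.7 ± 3.92 FPKM in WKY, a strain difference of -1.29 (SE 0.24, adjusted p = 0.00329). In the ganglion it was not called, at 2.68, 4.45, 4.97 and 5.09 FPKM in SHR, against 5.44, 4.55, 6.4 and 4.31 FPKM in WKY, a difference of -0.24 (SE 0.17, adjusted p = 0.469). The adrenal minus ganglion value was -1.05 (SE 0.28, adjusted p = 0.00705).

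The promoters of these opposite movers are set side by side, again the 250 bases before the RefSeq start on GRCr8, 5′ to 3′, all on the minus strand. Pde1a lies at chr3:85431779-85432028. Pde10a has a pair of starts in the table, with windows at chr1:54765669-54765918 (start A) and chr1:54501207-54501456 (start B). Capitals mark cAMP response element half-sites, of which start A of Pde10a has 2, starting 179 and 104 bases before the start, and the other windows none.
Pde1a: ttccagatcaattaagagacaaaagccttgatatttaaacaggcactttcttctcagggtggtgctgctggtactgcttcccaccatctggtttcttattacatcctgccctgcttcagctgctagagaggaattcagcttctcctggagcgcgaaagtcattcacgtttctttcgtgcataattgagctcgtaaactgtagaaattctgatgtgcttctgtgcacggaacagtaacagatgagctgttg
Pde10a start A: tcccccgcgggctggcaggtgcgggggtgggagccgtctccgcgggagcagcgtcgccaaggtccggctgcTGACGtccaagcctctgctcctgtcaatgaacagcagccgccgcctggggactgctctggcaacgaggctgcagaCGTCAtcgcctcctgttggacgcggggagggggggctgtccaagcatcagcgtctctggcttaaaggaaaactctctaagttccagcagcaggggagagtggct
Pde10a start B: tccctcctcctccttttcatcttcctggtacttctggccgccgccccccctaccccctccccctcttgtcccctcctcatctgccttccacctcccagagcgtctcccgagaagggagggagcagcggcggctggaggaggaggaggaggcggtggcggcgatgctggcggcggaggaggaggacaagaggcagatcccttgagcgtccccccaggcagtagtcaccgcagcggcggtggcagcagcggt
The Pde1a window holds 44.8% G and C, and the Pde10a windows 66% and 68.4%. A gene-level FPKM does not say which start was used, and a match of letters is not a binding site.

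Pde3a and Pde3b, the phosphodiesterases whose cyclic AMP hydrolysis is inhibited by cyclic GMP, were both lower in the SHR adrenal gland. Pde3a had 1.22, 1.07, 0.70 and 1.25 FPKM in SHR, against 1.7, 2.59, 2.43 and 2.55 FPKM in WKY, a strain difference of -0.69 (SE 0.13, adjusted p = 0.0029). Pde3b, also known as the insulin-activated form of fat cells, had 0.93, 0.84, 1.65 and 1.25 FPKM in SHR, against 2.29, 3.94, 3.04 and 2.33 FPKM in WKY, a strain difference of -0.84 (SE 0.16, adjusted p = 0.00305). Both were weak there, without overlap. In the ventricle Pde3a was the most abundant of this class, with 30.01, 35.98, 30.1 and 39.3 FPKM in SHR, against 33, 32.3, 33.2 and 33.2 FPKM in WKY. Its strains overlapped, and the difference was 0.03 (SE 0.09, adjusted p = 0.837). In the ganglion Pde1b, the calmodulin-stimulated form of neurons, was lower, with 3.23, 2.84, 3.32 and 3.7 FPKM in SHR, against 4.65, 3.63, 4.88 and 5.25 FPKM in WKY, a strain difference of -0.39 (SE 0.10, adjusted p = 0.0362). The lowest WKY ganglion lay below the highest SHR ganglion, and 6 of the 8 fits without 1 library lost the call. Pde1c was weak in every tissue. It had 0.41, 0.37, 0.44 and 0.44 FPKM in SHR, against 1.37, 0.96, 0.94 and 1.48 FPKM in WKY in the ventricle, where it was under the filter, and 1.48, 0.88, 1.41 and 1.82 FPKM in SHR, against 1.33, 0.54, 0.58 and 1.13 FPKM in WKY in the ganglion. The strain difference was 0.97 (SE 0.17, adjusted p = 5.43e-04) for the ganglion minus the ventricle. Pde11a, read in the ganglion at 1.7 to 4.17 FPKM, was not called. The summed phosphodiesterase level was 135 ± 5.55 FPKM in SHR and 199 ± 8.99 FPKM in WKY adrenal glands. Pde2a made 31.6% ± 4.24 of that sum in SHR and 41.8% ± 4.002 in WKY.

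The phosphodiesterases specific for cyclic AMP are the Pde4, Pde7 and Pde8 families. Pde8a, a high-affinity enzyme, had the highest mean of them in the adrenal gland, above Pde8b in 7 of 8 libraries. In the ventricle Pde8a, Pde4a and Pde4d overlapped, at 9.55 to 12.8, 6.13 to 12.4 and 9.4 to 11.5 FPKM, and none led. Pde8a had 37.1, 35.5, 34 and 38.4 FPKM in SHR, against 31.96, 36.7, 32.2 and 35.4 FPKM in WKY in the adrenal gland and 11.9, 9.55, 12.1 and 10.97 FPKM in SHR, against 11.4, 12.8, 10.7 and 10.4 FPKM in WKY in the ventricle, with overlapping strains in both and differences of 0.09 (SE 0.06, adjusted p = 0.301) and -0.02 (SE 0.09, adjusted p = 0.887). Its relative Pde8b, linked to cortisol-producing adrenal disease in humans, was lower in SHR, with 22.9, 18.1, 15.8 and 18.7 FPKM in SHR, against 34.9, 28.4, 32.2 and 23.7 FPKM in WKY. The lowest WKY gland stood just above the highest SHR gland, a strain difference of -0.63 (SE 0.13, adjusted p = 0.00515). Pde8a made 26.9% ± 1.71 of the phosphodiesterase sum in SHR and 17.2% ± 1.49 in WKY.

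Pde7b had 3.48, 3.22, 2.75 and 3.71 FPKM in SHR, against 5.63, 8.17, 6.82 and 7.79 FPKM in WKY in the adrenal gland, a strain difference of -0.91 (SE 0.12, adjusted p = 4.08e-04), with the strains apart. Pde4c was called in both the ventricle and the adrenal gland, lower in SHR. In the ventricle it had 5.73, 6.51, 5.58 and 4.86 FPKM in SHR, against 9.19, 8.19, 6.95 and 8.77 FPKM in WKY, without overlap, a strain difference of -0.48 (SE 0.10, adjusted p = 0.00908). The adrenal glands had 0.71, 1.18, 0.78 and 0.70 FPKM in SHR, against 1.01, 1.38, 1.5 and 1.49 FPKM in WKY, with overlap, a strain difference of -0.35 (SE 0.12, adjusted p = 0.0409), a call lost in 6 of 8 fits without 1 library. Every WKY gland reached 1 FPKM, but of the SHR glands only replicate 2 did. The filter was passed through WKY, so a lower SHR level was partly built into this adrenal test. Pde4b, which with Pde4d is a main target of rolipram in brain, led in the ganglion. It had 14.9, 16.2, 14.4 and 16.2 FPKM in SHR, against 18.4, 17.99, 21.3 and 17.6 FPKM in WKY, without overlap, a strain difference of -0.27 (SE 0.07, adjusted p = 0.0268), and 4 of 8 fits without 1 library lost the call. It was under the filter in the adrenal gland, at 0.63, 0.47, 0.42 and 0.47 FPKM in SHR, against 0.90, 1.04, 1.18 and 0.98 FPKM in WKY.

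For 3 members of this class the strain test was not passed in any tissue while the difference between tissues was. Pde4a had 1.18, 1.26, 1.24 and 1.45 FPKM in SHR, against 0.98, 0.79, 1.02 and 1.16 FPKM in WKY in the ganglion and 9.48, 10.9, 6.13 and 9.5 FPKM in SHR, against 10.6, 11.7, 10.4 and 12.4 FPKM in WKY in the ventricle, and the ganglion minus ventricle value was 0.52 (SE 0.16, adjusted p = 0.0317). That call was lost in 4 of 24 fits without 1 library and in 2 of 7 other settings, with adjusted p up to 0.0718. Pde4d had 1.03, 1.54, 1.08 and 1.59 FPKM in SHR, against 0.76, 1.31, 0.79 and 0.82 FPKM in WKY in the adrenal gland and 9.41, 9.4, 10.6 and 9.63 FPKM in SHR, against 11.5, 9.58, 10.9 and 11.5 FPKM in WKY in the ventricle, and the adrenal minus ventricle value was 0.41 (SE 0.14, adjusted p = 0.031), a call lost in 9 of 24 fits without 1 library. Pde7a had 4.25, 5.8, 4.75 and 4.3 FPKM in SHR, against 7.51, 4.77, 6.27 and 6.37 FPKM in WKY in the adrenal gland and 3.65, 4.44, 4.19 and 4.99 FPKM in SHR, against 4.07, 3.58, 4.34 and 3.43 FPKM in WKY in the ganglion, and the adrenal minus ganglion value was -0.45 (SE 0.17, adjusted p = 0.0443). That call was lost in 11 of 24 fits without 1 library and in 5 of 7 other settings, with adjusted p up to 0.136. The SHR values leaned opposite ways in these pairs of tissues, each by less than its own test required.

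Of the cyclic GMP-specific phosphodiesterases, Pde5a, the target of sildenafil, and Pde9a, the form with the highest affinity for cyclic GMP, passed the filter in all 3 tissues. Both were lower in the SHR adrenal gland. Pde5a had 2.15, 1.49, 2.54 and 2.92 FPKM in SHR, against 5.11, 4.01, 5.25 and 5.45 FPKM in WKY, a strain difference of -0.88 (SE 0.15, adjusted p = 0.00148). Pde9a had 1.99, 1.4, 2.07 and 1.77 FPKM in SHR, against 2.63, 3.67, 3.64 and 3.72 FPKM in WKY, a strain difference of -0.65 (SE 0.12, adjusted p = 0.00257). The strains were apart for both, and WKY replicate 1 was the low WKY gland for Pde9a. Neither was called elsewhere. Pde9a was the leading form in the ventricle, with 4.43, 5.18, 5.25 and 4.6 FPKM in SHR, against 7.9, 5.79, 7.26 and 5.03 FPKM in WKY and a difference of -0.34 (SE 0.12, adjusted p = 0.0754). It was far higher in the ganglion, with 20.4, 20.9, 20.9 and 20.1 FPKM in SHR, against 20.4, 18.9, 22.6 and 21.7 FPKM in WKY and a difference of -0.02 (SE 0.05, adjusted p = 0.885).

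PKA is a holoenzyme of regulatory and catalytic subunits, and cyclic AMP releases the catalytic ones. Prkaca and Prkacb encode the catalytic subunits. Prkaca led in the ventricle, with 116, 115, 106 and 118 FPKM in SHR, against 100.2, 113, 109.97 and 139 FPKM in WKY, and in the adrenal gland, with 87.1, 79.1, 81.5 and 88.03 FPKM in SHR, against 80.1, 72.4, 76.05 and 78.7 FPKM in WKY. Its differences were -0.01 (SE 0.09, adjusted p = 0.926) and 0.13 (SE 0.06, adjusted p = 0.102), neither called. Prkacb led in the ganglion, with 102, 119, 114 and 128 FPKM in SHR, against 112, 116, 112 and 102 FPKM in WKY and a difference of 0.06 (SE 0.07, adjusted p = 0.639). The adrenal glands had Prkacb at 54.6, 55.6, 56.6 and 55.7 FPKM in SHR, against 62.8, 78.7, 64.1 and 58.2 FPKM in WKY, a strain difference of -0.23 (SE 0.08, adjusted p = 0.0491). The SHR glands were tightly grouped just below the lowest WKY gland, and 7 of 8 fits without 1 library and 4 of the 6 other settings lost the call.

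The regulatory subunits bind the catalytic ones and keep them inactive. Prkar1a, the widely expressed type I subunit, had the highest mean level of all members in the ventricle and the adrenal gland, and in the ventricle it was above Pde4dip in 6 of 8 libraries. It had 226, 269.6, 253 and 252 FPKM in SHR, against 239.6, 257, 253 and 273 FPKM in WKY in the ventricle and 405, 415, 317 and 378 FPKM in SHR, against 381, 383, 345 and 364 FPKM in WKY in the adrenal gland. The strains overlapped in both, and the differences were -0.03 (SE 0.07, adjusted p = 0.752) and 0.03 (SE 0.08, adjusted p = 0.769). In the ganglion the neuronal subunit Prkar1b stood level with it. Prkar1b had 294, 299, 298 and 289 FPKM in SHR, against 296, 305, 309 and 306 FPKM in WKY, and Prkar1a 307, 301, 300.5 and 290.3 FPKM in SHR, against 278, 299, 282 and 287 FPKM in WKY. The differences were -0.04 (SE 0.03, adjusted p = 0.441) for Prkar1b and 0.07 (SE 0.03, adjusted p = 0.283) for Prkar1a. Prkar1b reached 0.64 to 1.15 FPKM in the ventricle, and the ganglion over ventricle difference was 7.32 (SE 0.07, adjusted p = 9.32e-29).

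Prkar2b, a type II subunit of endocrine, fat and nerve cells, was highest in the adrenal gland. There it had 107, 109, 109.7 and 99.3 FPKM in SHR, against 134, 160.1, 149 and 129.8 FPKM in WKY, a strain difference of -0.42 (SE 0.07, adjusted p = 0.00155), and every SHR gland was below every WKY gland. Its share of the regulatory sum was 20.2% ± 2.18 in SHR and 25.98% ± 2.04 in WKY. Prkar1b was weak there and lower in SHR, with 2.09, 3.53, 2.28 and 3.63 FPKM in SHR, against 5.11, 3.94, 5.39 and 5.48 FPKM in WKY, a strain difference of -0.64 (SE 0.16, adjusted p = 0.0099). Prkar2a moved up, with 44.1, 39.3, 38.3 and 40.8 FPKM in SHR, against 38.3, 33.3, 34.2 and 33.3 FPKM in WKY. The lowest SHR gland was level with the highest WKY gland to the decimals shown, a strain difference of 0.22 (SE 0.07, adjusted p = 0.0243), and 5 of 8 fits without 1 library lost the call. No regulatory subunit was called in the ventricle or the ganglion.

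PKG, the kinase activated by cyclic GMP, was read through Prkg1 in the ventricle and through Prkg2 in the other tissues. Prkg1, the form known for relaxing smooth muscle, passed the filter in the ventricle, with 1.77, 1.3, 2.06 and 2.15 FPKM in SHR, against 1.47, 2.02, 2.31 and 2.46 FPKM in WKY, overlapping strains and a difference of -0.12 (SE 0.14, adjusted p = 0.577). Prkg2, the membrane-bound form, spanned 0.00 to 0.08 FPKM in the ventricle. In the ganglion Prkg2 had 26.4, 34.9, 32.2 and 37.3 FPKM in SHR, against 33.7, 35.1, 31.7 and 29.1 FPKM in WKY, with overlap and a difference of 0.00 (SE 0.10, adjusted p = 0.987). In the adrenal gland it had 3.06, 2.6, 2.23 and 2.61 FPKM in SHR, against 4.61, 6.04, 5.4 and 3.65 FPKM in WKY, without overlap, a strain difference of -0.70 (SE 0.14, adjusted p = 0.00322). The strain difference of Prkg2 differed by -0.70 (SE 0.15, adjusted p = 0.0015) between the adrenal gland and the ganglion.

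The symbol rule also takes in 3 genes whose products are not cyclic nucleotide phosphodiesterases. Pde4dip (myomegalin) is a scaffold that binds Pde4d, and it spanned 201 to 256 FPKM in the ventricle, 2.62 to 3.47 FPKM in the adrenal gland and 9.69 to 14.1 FPKM in the ganglion, with no strain call. Pde6d is a carrier of prenylated proteins. It had 24.3, 22.6, 23.4 and 23.1 FPKM in SHR, against 16.6, 21.5, 20.1 and 22.7 FPKM in WKY in the adrenal gland, a difference of 0.20 (SE 0.09, adjusted p = 0.0902), and 41.4, 42.6, 41.4 and 37.8 FPKM in SHR, against 43.9, 48.2, 44.5 and 43.6 FPKM in WKY in the ganglion, a difference of -0.14 (SE 0.05, adjusted p = 0.101). Neither was called, but the adrenal minus ganglion value was 0.35 (SE 0.09, adjusted p = 0.00779). Pde12 is a mitochondrial enzyme that trims RNA tails. In the ventricle it had 2.8, 2.71, 2.71 and 3.3 FPKM in SHR, against 2.22, 2.35, 2.23 and 1.95 FPKM in WKY, a strain difference of 0.28 (SE 0.09, adjusted p = 0.0465), without overlap, a call that each of the 8 fits without 1 library lost. In the ganglion it had 2.32, 3.65, 3.1 and 3.36 FPKM in SHR, against 4.18, 3.91, 3.77 and 3.29 FPKM in WKY, and the ganglion minus ventricle value was -0.51 (SE 0.14, adjusted p = 0.0144).

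The genes that feed or answer the pathway were counted from lists by function. These lists were chosen with earlier results of these data known, so their counts describe the lists and do not test them. Of all genes tested, 21.2% were called in the ventricle (9.2% higher, 12% lower) and 41.2% in the adrenal gland (16.5% higher, 24.7% lower). In the ganglion 10.8% were (6.37% higher, 4.43% lower). These shares stand beside each list below, and a count of a short list near them is not a result about that list. Among 16 receptors coupled to stimulatory G proteins, 1 of 10 tested was higher and 3 lower in the SHR ventricle, 1 of 4 higher and 2 lower in the adrenal gland, and 1 of 3 lower in the ganglion. Adcyap1r1, the PACAP receptor, was lower in all 3. It averaged 1.67 ± 0.326 FPKM in SHR and 6.56 ± 1.68 FPKM in WKY, -1.48 on the log2 scale (adjusted p = 1.78e-04) in the ventricle. The adrenal gland had 2.94 ± 1.01 FPKM in SHR and 5.5 ± 0.618 FPKM in WKY, -0.75 on the log2 scale (adjusted p = 0.00697). In the ganglion the means were 100.3 ± 4.04 FPKM in SHR and 116 ± 9.39 FPKM in WKY, -0.20 on the log2 scale (adjusted p = 0.0468). Mc2r, the corticotropin receptor, averaged 154 ± 12.8 FPKM in SHR and 109 ± 10.03 FPKM in WKY, 0.50 on the log2 scale (adjusted p = 0.00122) in the adrenal gland. Adrb1, the cardiac β-adrenergic receptor, averaged 7.46 ± 1.15 FPKM in SHR and 4.95 ± 0.639 FPKM in WKY, 0.50 on the log2 scale (adjusted p = 0.0117) in the ventricle.

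Of the 7 G-protein subunits that act on adenylyl cyclase, 6 were tested in the ventricle (1 higher, 1 lower) and 7 each in the adrenal gland (1 higher, 2 lower) and the ganglion (none called). Gnas, the stimulatory α subunit, averaged 615 ± 22.9 FPKM in SHR and 772 ± 36.5 FPKM in WKY, -0.33 on the log2 scale (adjusted p = 0.0011) in the adrenal gland. Among the 9 genes for natriuretic peptide and nitric oxide input, 1 of 6 tested was higher and 1 lower in the ventricle, 3 of 5 were lower in the adrenal gland and none of 3 was called in the ganglion. Nos1, the neuronal nitric oxide synthase, averaged 5.23 ± 2.98 FPKM in SHR and 16.9 ± 3.34 FPKM in WKY, -1.61 on the log2 scale (adjusted p = 0.0033) in the adrenal gland. Nos3, the endothelial synthase, averaged 1.59 ± 0.162 FPKM in SHR and 2.69 ± 0.278 FPKM in WKY, -0.51 on the log2 scale (adjusted p = 0.00242) there. Nppb, the gene for B-type natriuretic peptide, averaged 623 ± 187 FPKM in SHR and 345 ± 33.2 FPKM in WKY, 0.81 on the log2 scale (adjusted p = 0.0226) in the ventricle.

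Among the PKA inhibitor peptides, Pkia was called in the adrenal gland and the ventricle. It averaged 49.95 ± 2.39 FPKM in SHR and 14.5 ± 1.98 FPKM in WKY, 1.72 on the log2 scale (adjusted p = 9.75e-07) in the adrenal gland. The 4 SHR glands spanned 46.95 to 52.8 FPKM and the 4 WKY glands 13.04 to 17.4 FPKM, far apart. The ventricle had 213 ± 19.9 FPKM in SHR and 164 ± 25.1 FPKM in WKY, 0.39 on the log2 scale (adjusted p = 0.0256). Pkib averaged 1.32 ± 0.220 FPKM in SHR and 0.490 ± 0.0663 FPKM in WKY, 0.63 on the log2 scale (adjusted p = 0.0019) in the ganglion. Its WKY level lay under 1 FPKM, so it passed the filter through SHR alone, and a higher SHR level was built into its test. Of the 15 A-kinase anchoring proteins, which hold PKA in place, 1 of 11 tested was higher and 2 lower in the ventricle, 2 of 10 higher in the adrenal gland and none of 12 called in the ganglion. Akap8l averaged 29.2 ± 3.06 FPKM in SHR and 46.9 ± 4.24 FPKM in WKY, -0.67 on the log2 scale (adjusted p = 7.68e-04) in the ventricle, and Akap12 18.3 ± 6.07 FPKM in SHR and 9.805 ± 2.7 FPKM in WKY, 0.81 on the log2 scale (adjusted p = 0.0344) in the adrenal gland.

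Among 14 other cyclic nucleotide effectors with values, 3 of 7 tested were higher in the ventricle and none of 4 was called in the adrenal gland. Hcn4, the pacemaker channel, averaged 5.75 ± 3.72 FPKM in SHR and 1.08 ± 0.462 FPKM in WKY, 1.58 on the log2 scale (adjusted p = 0.0149) in the ventricle. Of the 9 CREB factors and coactivators, all tested in each tissue, 2 were higher in the ventricle, and 2 were higher and 1 lower in the adrenal gland. Crem averaged 12.9 ± 1.897 FPKM in SHR and 8.58 ± 0.735 FPKM in WKY, 0.53 on the log2 scale (adjusted p = 0.00603) in the ventricle, and Crtc3 19.5 ± 3.502 FPKM in SHR and 11.02 ± 3.14 FPKM in WKY, 0.79 on the log2 scale (adjusted p = 0.00983) in the adrenal gland. Of 10 genes known as CREB targets, 8 of 9 tested were higher in the adrenal gland, with a list median of 3.48 beside -0.04 for all genes. This list too was chosen with earlier results of these data known, so its count is not independent support for a change in CREB activity. In the ventricle 4 of 10 were higher and 1 lower, and in the ganglion 1 of 8 was higher. Nr4a1, an immediate early gene, averaged 394 ± 177 FPKM in SHR and 19.3 ± 4.53 FPKM in WKY, 4.18 on the log2 scale (adjusted p = 1.85e-04) in the adrenal gland. These genes also answer to signals other than cyclic AMP. Of 9 muscle substrates of PKG and PKA, Tnni3, cardiac troponin I, was the 1 of 8 called in the ventricle, at 4911 ± 144 FPKM in SHR and 5689 ± 271 FPKM in WKY, -0.21 on the log2 scale (adjusted p = 0.0127). Vasp was the 1 of 6 called in the adrenal gland, higher, and the 1 of 6 in the ganglion, lower. Neither of the 2 cyclic nucleotide exporters was called in any tissue.

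The authors' deposited table gives its own log2 ratios and q-values, with a q for 50 members in the ventricle, 51 in the adrenal gland and 53 in the ganglion. At a q under 0.05, 3 members were higher and 4 lower in the ventricle, 5 higher and 23 lower in the adrenal gland, and 1 higher and 5 lower in the ganglion. The share of all genes under that q is not given here, so these counts have no background beside them. That table shared 4 of the 5, 20 of the 21 and 5 of the 5 limma calls, each with the same sign. Both sets of calls come from the same libraries, so the shared signs are not independent support.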

How the data were processed

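RNA of 24 libraries was read on a BGISEQ-500 after KAPA RNA HyperPrep, per the labels' protocols. The submitters' processing notes list the build Rnor_6.0 and the tools RSEM 1.3.1, Bowtie2 and DESeq2 1.4.5, with no role or order. The values are FPKM with 2 decimals, deposited by the authors, who also deposited log2 ratios of the strains and q-values, per the file headers. Of 22864 rows 2358 were blank.

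From the FPKM values, log2(FPKM + 1) was tested with limma 3.58.1 in R 4.3.3 (trend, robust), Benjamini-Hochberg adjusted over all genes tested in a tissue (12451, 12589 and 12987). Tissue contrasts and differences of strain differences came from 1 model of all 24 libraries (14682 genes with at least 1 FPKM in 4 libraries). FPKM sums were 455530 to 549167 per library. Depth is unknown, so no counting interval is given. Alternatives were a pseudocount of 0.1, no filter, median-of-ratios and quantile scaling, no trend, a replicate block and each library left out. The test was checked on simulated data. Members and lists were chosen with earlier results of these data known. Named in full are members called in a strain or between-tissue contrast with a mean of at least 1 FPKM in either strain, and the most abundant member of each role. Of the lists, called genes are named by smallest adjusted p. One result of these lists in the ganglion is not reported here. Promoters are from RefSeq, matched by gene identifier (53 of 53 members have an entry in the gene table, 37 a promoter).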

Additional observations from a re-analysis of the deposited data

Results flagged for a closer look

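In 62 groups of 4 libraries of called members, 1 library stood apart from the other 3 in 4 groups, where chance would give about 3.1. Pde2a in SHR adrenal replicate 3 was 52.8 FPKM, and the other SHR glands were 38.8 to 39.8 FPKM. Pde9a in WKY adrenal replicate 1 was 2.63 FPKM, below the other WKY glands at 3.64 to 3.72 FPKM. Pde4c in SHR adrenal replicate 2 was 1.18 FPKM, above the others at 0.70 to 0.78 FPKM, and it is the value that overlaps WKY. Pde12 in SHR ventricle replicate 4 was 3.30 FPKM, above the others at 2.71 to 2.80 FPKM.

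The strain difference itself differed between tissues in the following members. The values are differences of SHR minus WKY differences on the log2(FPKM + 1) scale, each with an adjusted p under 0.05 in the joint limma model. For the adrenal gland minus the left ventricle the values above 0 were Adcy9 0.51, Pde1a 1.85, Pde1c 0.67, Pde4a 0.41, Pde4d 0.41 and Pde6d 0.30. Those below 0 were Adcy2 -0.43, Adcy3 -0.42, Adcy4 -0.55, Adcy5 -0.67, Adcy6 -0.65, Adcy7 -0.87, Gucy1a3 -0.44, Pde10a -1.30, Pde2a -0.64, Pde3a -0.72, Pde3b -0.79, Pde4b -0.52, Pde5a -0.78, Pde7b -0.98, Prkar1b -0.42 and Prkg2 -0.68. For the ganglion minus the left ventricle the values above 0 were Pde1c 0.97, Pde2a 0.71, Pde4a 0.52 and Pde4c 0.54, and those below 0 were Adcy8 -0.52, Pde12 -0.51 and Pde4b -0.35. For the adrenal gland minus the ganglion the values above 0 were Adcy8 0.40, Adcy9 0.57, Pde12 0.38, Pde1a 2.05, Pde4d 0.41 and Pde6d 0.35. Those below 0 were Adcy2 -0.49, Adcy3 -0.73, Adcy4 -0.51, Adcy5 -0.43, Adcy6 -1.01, Adcy7 -0.51, Gucy1a3 -0.64, Pde10a -1.05, Pde2a -1.35, Pde3a -0.69, Pde3b -0.84, Pde5a -0.85, Pde7a -0.45, Pde7b -0.63, Pde8b -0.71, Pde9a -0.63, Prkar1b -0.60, Prkar2b -0.34 and Prkg2 -0.70. In 5 of these calls the member stayed under 1 FPKM in every library of 1 of the tissues: Adcy2, Prkg2 and Pde1c for the adrenal gland minus the ventricle, Adcy8 for the ganglion minus the ventricle and Adcy8 for the adrenal gland minus the ganglion. In further calls the member passed 1 FPKM in some libraries but was under the filter in 1 of the tissues. These were Pde4a, Pde4b, Adcy2 and Adcy7 in the adrenal gland, Pde10a, Prkar1b and Pde1c in the ventricle, and Pde1a and Pde4c in the ganglion. Adcy8 was listed at 0 FPKM in all 8 ventricles, so its ganglion minus ventricle value restates the ganglion strain difference. The contrasts share libraries.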

How the results depend on the processing

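Of 31 strain calls of members, 22 passed in each of the 14 settings tried. These were 17 of 21 adrenal calls, 3 of 5 ganglion calls and 2 of 5 ventricle calls. Leaving out 1 library at a time gave 17 to 20 called members for the adrenal gland, 3 to 5 for the ganglion and 2 to 6 for the ventricle. The ventricle count was 3 without SHR replicate 1, 3 without SHR replicate 2 and 2 without SHR replicate 4. The ganglion count was 3 without SHR replicate 1, SHR replicate 3, WKY replicate 1 or WKY replicate 3. The remaining settings gave 20 to 25 adrenal, 4 to 5 ganglion and 4 to 6 ventricle calls. Of 54 calls on differences between tissues, 35 passed in each of 31 settings: 15 of 22 for the adrenal gland minus the ventricle, 4 of 7 for the ganglion minus the ventricle and 16 of 25 for the adrenal gland minus the ganglion. Most often lost were Pde4a (20 of 31) and Prkar1b (10 of 31) in the first contrast, Pde4b (9 of 31) in the second, and Pde7a (16 of 31), Prkar2b (13 of 31) and Pde12 (12 of 31) in the third. A single value changed sign: the adrenal minus ganglion strain difference of Adcy8 was -0.10 with a pseudocount of 0.1 (adjusted p = 0.754), against 0.40 with 1. In the adrenal gland Adcy8 averaged 0.0275 FPKM in SHR and 0.115 FPKM in WKY. Both lie far under the added 1, which understates a strain difference at such levels.

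With the replicate number as a block 6 members were called in the ventricle, 21 in the adrenal gland and 4 in the ganglion. Of the ventricle calls 4 were kept. The block ended 2 of the 54 calls between tissues, both of Pde4a, at adjusted p = 0.0712 for the adrenal gland minus the ventricle and 0.0544 for the ganglion minus the ventricle. SHR and WKY libraries of the same number had deviations that correlated at -0.06 to 0.18 in ventricles, -0.0035 to 0.23 in adrenals and -0.15 to 0.18 in ganglia. Different numbers gave -0.16 to 0.07, -0.32 to 0.20 and -0.34 to 0.32 in the same order. SHR replicates 1, 3 and 4 correlated best with the WKY library of their number in the ventricle and the adrenal gland. In the ganglion only SHR replicate 3 did. Between tissues of a strain, libraries of the same number correlated at -0.14 to 0.18 and of different numbers at -0.15 to 0.16. The labels do not say whether a number stands for a shared batch or rat. FPKM carries no read count, so depth could not be weighed, and members near 1 FPKM are limited by it.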

Other observations

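Some members separated the strains without passing the test. In the ventricle Adcy3, a cyclase best known from olfactory neurons, had 1.7, 1.5, 1.61 and 1.89 FPKM in SHR, against 2.72, 2.0, 2.04 and 2.28 FPKM in WKY, with every SHR library below every WKY library and a limma difference of -0.28 (SE 0.10, adjusted p = 0.0698). In the ganglion Adcy5 had 5.63, 5.64, 6.42 and 6.44 FPKM in SHR, against 5.27, 4.63, 5.6 and 5.12 FPKM in WKY, with SHR above WKY in every library and a difference of 0.19 (SE 0.07, adjusted p = 0.122). Pde6d and Pde4a were the other ganglion members apart without a call. The calcium-stimulated Adcy1 in the ventricle had 3.27, 4.0, 4.14 and 5.01 FPKM in SHR, against 5.44, 7.61, 4.54 and 9.46 FPKM in WKY, with overlap and a difference of -0.57 (SE 0.19, adjusted p = 0.0617), the ventricle's largest in size among the members tested there.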
